A study of Rattus norvegicus with 12 samples.

Results

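The subunits of the NMDA receptor, a glutamate-gated ion channel, were followed in the dorsal striatum of rats modelling Parkinson's disease. They are encoded by 7 genes, namely Grin1, Grin2a, Grin2b, Grin2c, Grin2d, Grin3a and Grin3b. All probes that the array files name after one of these genes were taken, which gave 9 probes of the 41012 on the array and 7 genes of 35623. All 12 male rats had been lesioned on one side with 6-hydroxydopamine (6-OHDA, 9 µg into the left substantia nigra), a toxin that destroys the dopamine neurons projecting to the striatum. The 6-OHDA group had no further treatment. The HFS group had continuous high frequency stimulation of the subthalamic nucleus on the lesioned side over 5 days (frequency 130 Hz, pulse width 80 µs, current 60 µA). DOPA rats were given L-DOPA at 25 mg/kg with benserazide at 12.5 mg/kg in 2 injections per day for 19 days. The DOPA/HFS group was given the same L-DOPA course and was stimulated during its last 5 days. Of these groups, the paper describes electrode implantation, under a further anaesthesia, for HFS and DOPA/HFS only. Stimulation and implantation therefore cannot be told apart in comparisons with unstimulated rats. Each group held 3 rats, with 1 array per rat. Rats without a lesion were not on these arrays, so that every comparison is between lesioned animals. The comparisons asked what each treatment, alone or combined, did to striatal RNA levels against the lesion alone.

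The NMDA receptor is a tetramer that opens when glutamate and a co-agonist, glycine or D-serine, bind while the membrane is depolarised, and it then lets calcium into the cell. Every receptor contains the subunit of Grin1, which binds the co-agonist. The subunits of Grin2a to Grin2d bind glutamate and set the kinetics and the magnesium block of the channel, and those of Grin3a and Grin3b bind glycine and lower calcium entry. In the striatum these receptors sit at the synapses that cortical and thalamic fibres form on projection neurons, and they have long been studied in L-DOPA-induced dyskinesia.

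The arrays measured mixed tissue, in which fewer cells of a type and less RNA per cell cannot be told apart. Markers of striatal projection neurons, among them Ppp1r1b, Drd1 and Drd2, were bright everywhere, with a mean log2 signal between 13.48 and 13.92 on the 12 arrays over the 8 of 9 listed genes past the filter that had a value on every array. The 4 choroid plexus genes of this kind, Ttr among them, averaged between 7.77 and 11.69 in HFS, 3.78 and 9.74 in DOPA, 3.91 and 6.36 in DOPA/HFS, and 4.37 and 4.81 in 6-OHDA. The mean of the 3 genes listed for cortical projection neurons ranged over the arrays from 9.1 to 11.22, both in HFS. Of these genes Nrgn read 15.48 to 16.38, Neurod2 7.19 to 9.81 and Slc17a7 4.35 to 7.76. Nrgn thus lifted the level of this mean but varied the least. Whether this list reads cortical cells was not tested. The part of the marker lists in the values below was not tested either. Between 50.5% and 63.2% of the spots of an array were well above background. The array of DOPA/HFS replicate 3 stood apart, with 4175 spots that the scanner software marked as outliers against 2 to 25 on the others. Every group had 1 array on each of the 3 slides, and replicates are numbered by slide. A group always had the same position on its slide, so that treatment and position cannot be told apart. P-values below measure the spread between arrays of a group, each from 1 rat. The number of arrays limits their precision.

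No subunit passed the test in any comparison. Of the 7 genes, 5 had a probe well above background on enough arrays to be tested, and Grin3a and Grin3b did not. To be called, a gene needed a p under 0.1 after Benjamini-Hochberg adjustment, in a limma fit of all 12 arrays, and a fold change over 1.2 or under 0.8. In HFS against 6-OHDA, 0 of the 5 subunits were called, where 0% of the 20405 tested genes were. In DOPA, 0 were called, with 0.0049% of all genes. In DOPA/HFS, 0 were called, with 0% of all genes. Before adjustment, 0 of the 5 had a limma p under 0.05 in any of these comparisons, where the share of all genes was 2.34% for HFS, 2.59% for DOPA and 2.75% for DOPA/HFS. With saturated spots left out, as described under Grin2d, this count became 1 in DOPA/HFS, where the share of all genes was 2.79%. For none of the 4 subunits with a value on all 12 arrays did the 3 treated arrays lie apart from the 3 of 6-OHDA with such a fold, while 3.2%, 3.87% and 2.79% of all genes did in the respective comparisons. With 3 rats against 3 the exact permutation test cannot give a p under 0.1. The median log2 fold change of the 5 subunits was -0.13 for HFS, -0.07 for DOPA and -0.02 for DOPA/HFS, beside 0.01, -0.01 and -0.01 for all genes. The 3 comparisons share the 6-OHDA arrays.

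**Figure D1:**
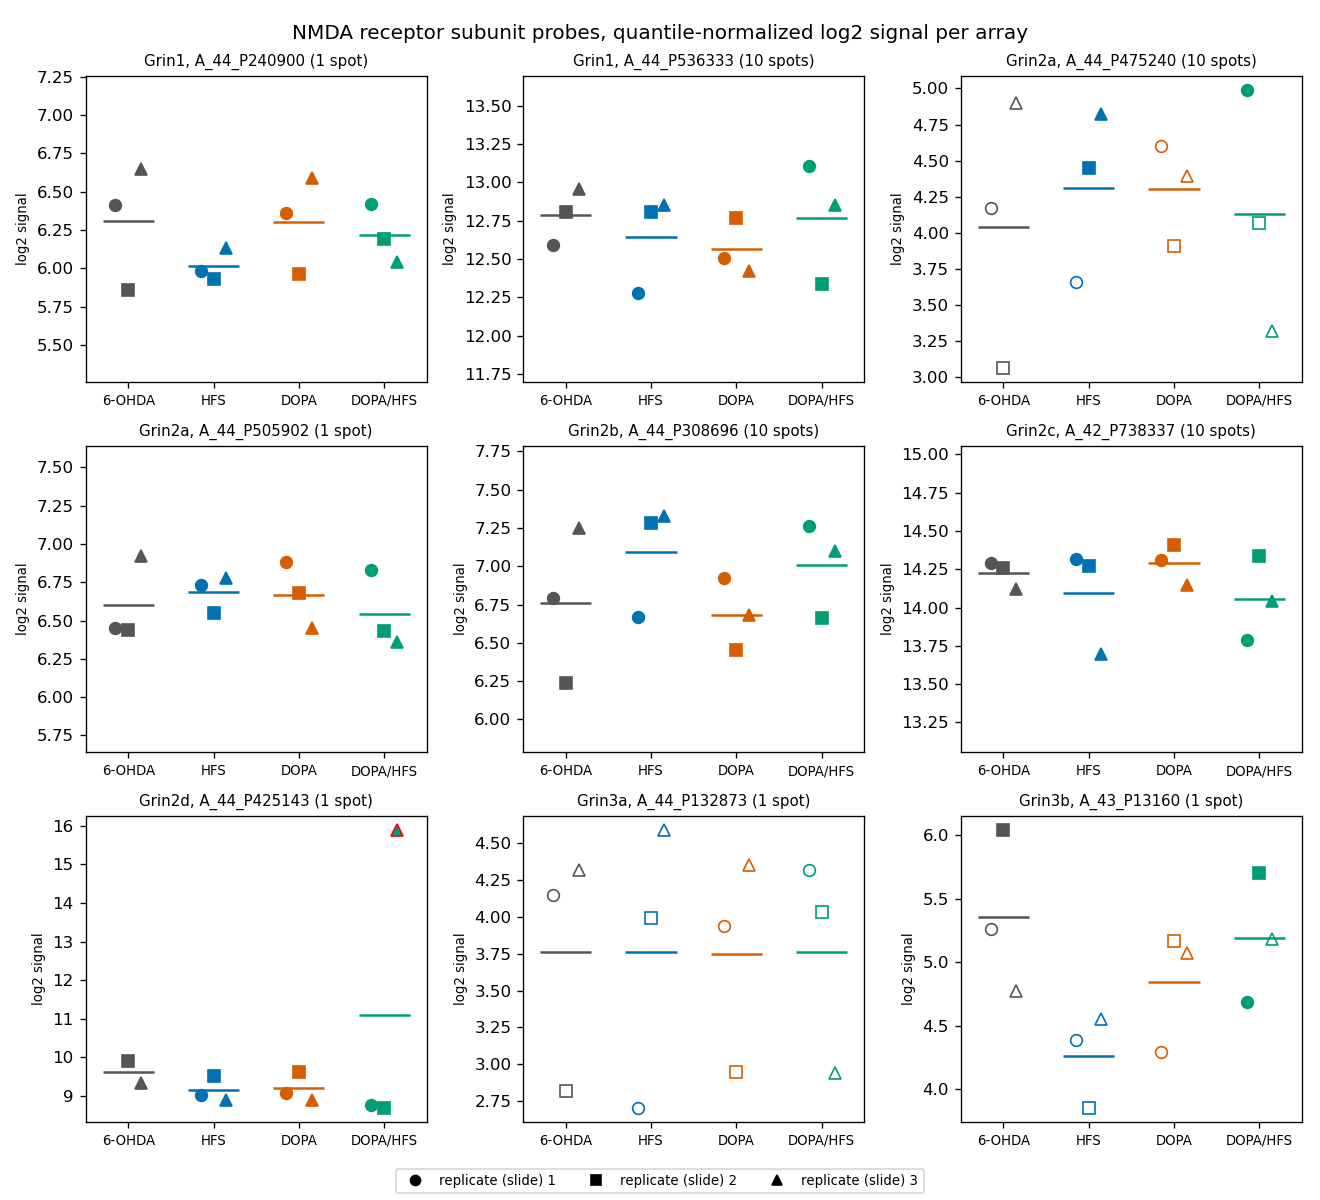
Log2 signal of each of the 9 NMDA receptor subunit probes (y axis, quantile-normalized, a separate range in each panel) on the 12 arrays by group (x axis). Marker shape gives the replicate, which is also the slide; horizontal lines are group means. Open markers are arrays where the probe was not well above background, and the red outline is a saturated spot. The groups overlap for Grin1, Grin2a, Grin2b and Grin2c, and the Grin2d spot of DOPA/HFS replicate 3 lies at 15.89, far from the other Grin2d values.

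Grin1, the subunit common to all NMDA receptors, was the first member examined. Its brighter probe, A_44_P536333, read 12.59, 12.81 and 12.96 in the 6-OHDA rats on the log2 signal scale. The HFS rats read 12.28, 12.81 and 12.85, the DOPA rats 12.51, 12.77 and 12.42, and the DOPA/HFS rats 13.11, 12.34 and 12.85. Every treated group overlapped with 6-OHDA, and the lowest and highest single rats were both stimulated ones. The means ± SD, n = 3 each, were 12.79 ± 0.18 in 6-OHDA, 12.77 ± 0.39 in DOPA/HFS, 12.65 ± 0.32 in HFS and 12.57 ± 0.18 in DOPA. No neighbours in this order differed beyond their spread. The log2 fold change against 6-OHDA was -0.14 in HFS (SE 0.23), -0.22 in DOPA (SE 0.23) and -0.02 in DOPA/HFS (SE 0.23). The 95% confidence interval for DOPA ran from -0.72 to 0.28, which leaves room for changes of either sign. Limma's adjusted p was 0.998 in HFS and 1 in both others.

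The file also held a dimmer Grin1 probe, A_44_P240900, printed as a single spot and above background on all 12 arrays. It read 6.41, 5.86 and 6.65 in 6-OHDA, 5.98, 5.93 and 6.13 in HFS, 6.36, 5.96 and 6.59 in DOPA, and 6.42, 6.19 and 6.04 in DOPA/HFS. The HFS values were close together and within the range of 6-OHDA. Fitted on its own, this probe changed by -0.29 in HFS (SE 0.22), by 0 in DOPA (SE 0.22) and by -0.09 in DOPA/HFS (SE 0.22), and it was not called. In the fit of single probes 0 of the member probes past the filter were called in any comparison, with 0.00825% of all probes. The 2 probes of Grin1 did not follow each other over the arrays: Pearson's r was 0.0301 (permutation p = 0.926, n = 12) and Spearman's rho 0.126 (permutation p = 0.696), and r was 0.0177 without the 2 arrays farthest from the median. The 10 spots of the brighter probe varied with a median SD of 0.05 within an array, against 0.28 between arrays of a group. Arrays of a group, each from another rat and labelled and hybridised on its own, thus spread more widely than spots of the same array.

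Grin2a encodes a glutamate-binding subunit that gives fast channel kinetics and rises during postnatal development of the forebrain. Its single-spot probe A_44_P505902 read 6.45, 6.44 and 6.92 in 6-OHDA, 6.73, 6.55 and 6.78 in HFS, 6.88, 6.68 and 6.45 in DOPA, and 6.83, 6.43 and 6.36 in DOPA/HFS. The groups lay within one another. The signal was dim, with processed intensities from 61 to 164, though well above background on all 12 arrays. How far this limits the fold changes was not tested. Means ± SD, n = 3 each, were 6.69 ± 0.12 in HFS, 6.67 ± 0.21 in DOPA, 6.6 ± 0.27 in 6-OHDA and 6.54 ± 0.25 in DOPA/HFS, with no neighbours differing beyond their spread. Against 6-OHDA the log2 fold change was 0.08 for HFS, 0.07 for DOPA and -0.06 for DOPA/HFS, each with an SE of 0.19. The SD between arrays of a group was 0.22 for this probe.

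The other Grin2a probe, A_44_P475240, carried 10 spots but was well above background on only 3 of 12 arrays, so it gave no test. Those were HFS replicates 2 and 3, at 4.45 and 4.82, and DOPA/HFS replicate 1, at 4.99. With so few measured values, no relation between the probes of Grin2a is given.

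**Figure D2:**
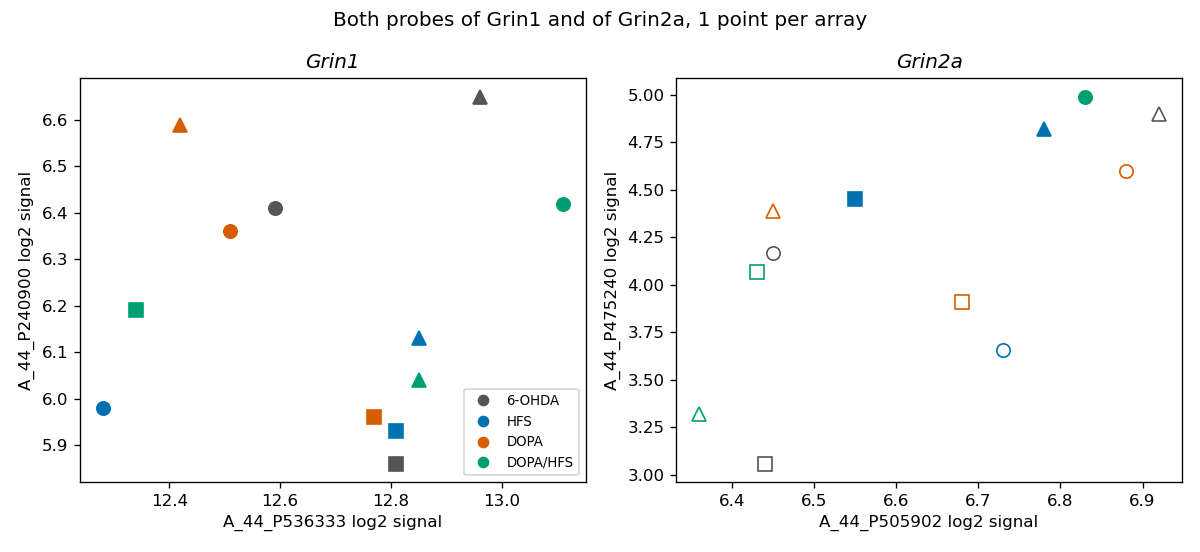
Log2 signal of the 2 probes of Grin1 (left) and of Grin2a (right), brighter probe on the x axis and dimmer probe on the y axis, with 1 point per array. Colour gives the group, shape the replicate or slide (circle 1, square 2, triangle 3), and open markers are arrays where the dimmer probe was not well above background. The Grin1 points show no trend (r = 0.0301), and for Grin2a only the 3 filled points measure the gene with both probes.

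Grin2b encodes a subunit that closes more slowly and binds calcium/calmodulin-dependent kinase II. Its probe, averaged over 10 spots, read 6.79, 6.24 and 7.25 in 6-OHDA and 6.67, 7.28 and 7.33 in HFS. The DOPA rats read 6.92, 6.45 and 6.68, and the DOPA/HFS rats 7.26, 6.66 and 7.1. This signal was dim, with processed intensities from 54.4 to 227, though well above background on all 12 arrays. How far this limits the fold changes was not tested. Of the HFS rats, replicates 2 and 3 were above every 6-OHDA rat, while replicate 1 was below 2 of them. The order of the means ± SD, n = 3 each, was HFS at 7.09 ± 0.37, DOPA/HFS at 7.01 ± 0.31, 6-OHDA at 6.76 ± 0.5 and DOPA at 6.69 ± 0.23, and no neighbours differed beyond their spread. The log2 fold change against 6-OHDA was 0.33 in HFS (SE 0.28, 95% confidence interval -0.28 to 0.94), 0.25 in DOPA/HFS (SE 0.28) and -0.07 in DOPA (SE 0.28). On the 3 slides the HFS rat differed from the 6-OHDA rat by -0.12, 1.03 and 0.08, so that slide 2 gave most of the mean difference. Averaged over rats with and without L-DOPA, stimulated rats differed from the others by 0.33 (SE 0.2, limma's adjusted p = 0.912). In that comparison 0 subunits were called, with 0% of all genes, and 0 had an unadjusted p under 0.05, against 4.36% of all genes. The HFS value rested on single arrays. It was 0.07 without 6-OHDA replicate 2, 0.21 without HFS replicate 3, 0.54 without HFS replicate 1, where the remaining HFS arrays lay apart from 6-OHDA (share of all genes not computed), and 0.58 without 6-OHDA replicate 3. It was 0.18 with the normexp background model and 0.19 in the deposited table. The mean of the cortical projection neuron genes was 10.74, 9.42 and 10.18 in 6-OHDA and 9.1, 10.89 and 11.22 in HFS, so that 6-OHDA replicate 2 and HFS replicate 1 were low in their group for it and for Grin2b. Of these genes Nrgn read 15.62, 16.09 and 16.22 in 6-OHDA, where replicate 2 was not the lowest. The same 2 arrays were lowest in their groups for microglia markers, at 9.02 and 9.69, and striatal projection neuron markers, at 13.56 and 13.48. For interneuron, astrocyte, oligodendrocyte and choroid plexus markers they were not both lowest. The part of these lists in the Grin2b values was not tested.

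Grin2c is best known from cerebellar granule cells and astrocytes. Its probe, averaged over 10 spots, read 14.29, 14.26 and 14.12 in 6-OHDA, 14.32, 14.27 and 13.7 in HFS, 14.31, 14.41 and 14.15 in DOPA, and 13.79, 14.34 and 14.04 in DOPA/HFS. HFS replicate 3 and DOPA/HFS replicate 1 were the low arrays, and the other 10 lay between 14.04 and 14.41. Means ± SD, n = 3 each, were 14.29 ± 0.13 in DOPA, 14.22 ± 0.09 in 6-OHDA, 14.1 ± 0.34 in HFS and 14.05 ± 0.28 in DOPA/HFS, and again no neighbours differed beyond their spread. The log2 fold change was -0.13 for HFS, 0.07 for DOPA and -0.17 for DOPA/HFS, each with an SE of 0.2, and limma's adjusted p was 0.998 or more.

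Grin2d, whose subunit gives slow, weakly magnesium-sensitive channels and is found in striatal interneurons, rested on a single spot per array. It read 9.9 and 9.34 in 6-OHDA replicates 2 and 3, 9.04, 9.51 and 8.89 in HFS, 9.09, 9.63 and 8.9 in DOPA, and 8.76 and 8.68 in DOPA/HFS replicates 1 and 2. In DOPA/HFS replicate 3 the spot read 15.89, a processed intensity of 96400 against 384 to 913 on the other arrays, and was saturated. The scanner software had not marked it as an outlier. It had marked the spot of 6-OHDA replicate 1, which was left out. Around the bright spot, within 10 rows and columns, 6.48% of 432 spots were marked as outliers against 9.62% over the whole array. Of these 432 spots 7 were saturated, against 1 to 3 around the Grin2d spot of the other arrays, while 0.549% of the whole array were. On that array 15 probes were over 16-fold above all other arrays, a number that ran from 0 to 27 over the 12 arrays and was highest in 6-OHDA replicate 2.

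The fitted value for Grin2d in DOPA/HFS was set by this spot. With it, and with 2 rats in 6-OHDA, the log2 fold change was 1.49 (SE 1.71, 95% confidence interval -2.33 to 5.3, limma's adjusted p = 1). With saturated spots left out, a step added after the values had been seen, it was -0.9 (SE 0.31, 95% confidence interval -1.6 to -0.21, limma's adjusted p = 1), from 2 arrays against 2. Before adjustment Grin2d was under 0.05 in that fit, here and in the effect of HFS averaged over L-DOPA (-0.48, SE 0.2, limma's adjusted p = 0.907), as were 2.79% and 4.46% of all genes. In that fit HFS differed from 6-OHDA by -0.47 (SE 0.28) and DOPA by -0.41 (SE 0.28). Means ± SD were then 9.62 ± 0.39 in 6-OHDA (n = 2), 9.2 ± 0.38 in DOPA (n = 3), 9.15 ± 0.33 in HFS (n = 3) and 8.72 ± 0.05 in DOPA/HFS (n = 2). The 2 DOPA/HFS arrays left lay below the 2 of 6-OHDA. The share of all genes that lie apart with 2 arrays against 2 was not computed, so nothing is read from this. When the marked spot of 6-OHDA replicate 1 was kept instead, it read 9.54 beside 9.93 and 9.38 for its group, above the 8.8 and 8.73 of DOPA/HFS replicates 1 and 2. With all spots HFS and DOPA also had -0.47 and -0.41 (SE 1.71 each). No direction is given for Grin2d, since no adjusted p passed and 1 spot turns its sign in comparisons that include DOPA/HFS.

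**Figure D3:**
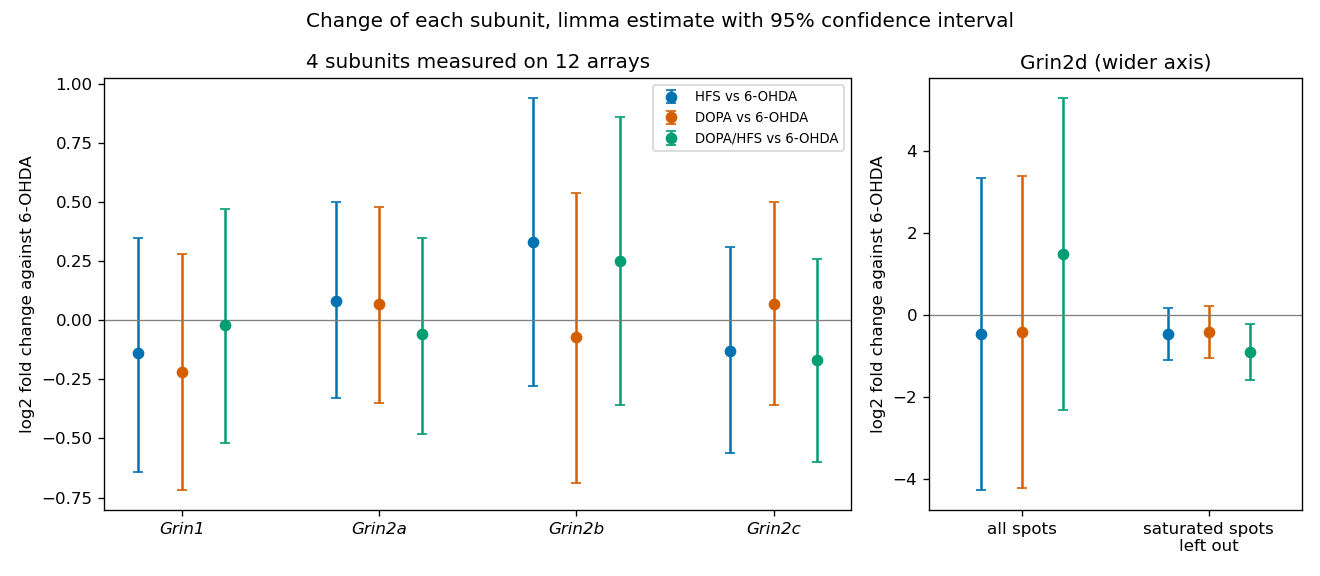
Log2 fold change against 6-OHDA (y axis) from the limma fit, with 95% confidence intervals as bars, for the 4 subunits measured on 12 arrays (left) and for Grin2d with all spots and with saturated spots left out (right, wider axis). Colours give the comparison. All intervals on the left cross 0, and the DOPA/HFS value of Grin2d moves from 1.49 to -0.9 when the saturated spot is left out.

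The glycine-binding subunits of Grin3a and Grin3b could not be tested. The Grin3a probe was well above background on 0 of 12 arrays, with values between 2.7 and 4.59 that carry no order. The Grin3b probe was well above background on 3 arrays, 6-OHDA replicate 2 at 6.04, DOPA/HFS replicate 1 at 4.69 and DOPA/HFS replicate 2 at 5.7. In HFS it was on none, reading 4.39, 3.85 and 4.55, all below the 6-OHDA readings of 5.26, 6.04 and 4.77. The share of all genes that lie apart without the filter on dim probes was not computed. Since only 1 of the 3 arrays of 6-OHDA measured the gene, no bound on the difference is given. In a fit without the filter on dim probes, Grin3b had a log2 fold change of -1.1 in HFS (SE 0.39, limma's adjusted p = 0.99). The same fit gave -0.51 in DOPA and -0.17 in DOPA/HFS (SE 0.39 each).

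Whether stimulation acted differently on a background of L-DOPA was tested as an interaction. In it 0 of the 5 subunits were called, with 0% of all genes, and 0 had an unadjusted limma p under 0.05, against 1.98% of all genes. The difference between the HFS effects with and without L-DOPA was 0.34 for Grin1 (SE 0.32), -0.21 for Grin2a (SE 0.27), -0.01 for Grin2b (SE 0.39) and -0.11 for Grin2c (SE 0.28). For Grin2d it was 2.37 (SE 2.3) and fell to -0.02 (SE 0.4) with saturated spots left out. In the effect of L-DOPA averaged over rats with and without HFS, 0 subunits were called, with 0.0049% of all genes, and the 4 subunits other than Grin2d lay between -0.08 and 0.01. A moderated F test over the 4 groups called 0 subunits, with 0.0049% of all genes, and 0 had an unadjusted p under 0.05, against 2.81% of all genes.

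How the subunits varied together was examined over the arrays, in 10 pairs of the 5 tested members. No pair passed by Pearson's r after Benjamini-Hochberg adjustment, and 1 passed by rank. This pair was Grin1 and Grin2c, with rho = -0.769 (permutation p = 0.0049, adjusted 0.049, n = 12) and r = -0.599 (permutation p = 0.0384, adjusted 0.192), and r = -0.535 without the 2 arrays farthest from the median of Grin1. Arrays with more Grin1 signal had less Grin2c signal. With 75th percentile scaling in place of quantile normalization rho was -0.105 (permutation p = 0.748) and r -0.149. The relation was thus not seen under that scaling, and the reason was not tested. With quantile normalization and group means removed, the relation was of similar size but did not pass. There rho was -0.622 (permutation p = 0.0344, adjusted 0.107) and r -0.632, which fell to -0.336 without the 2 farthest arrays. Grin2b and Grin2c had r = -0.675 (permutation p = 0.0135, adjusted 0.135) and rho = -0.692, with r = -0.674 without the 2 farthest arrays, and r stayed at -0.603 with group means removed and at -0.613 with 75th percentile scaling. Grin1 and Grin2b had r = 0.509 (permutation p = 0.0924, adjusted 0.231) and rho = 0.587. The arrays share slides and their normalization.

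**Figure D4:**
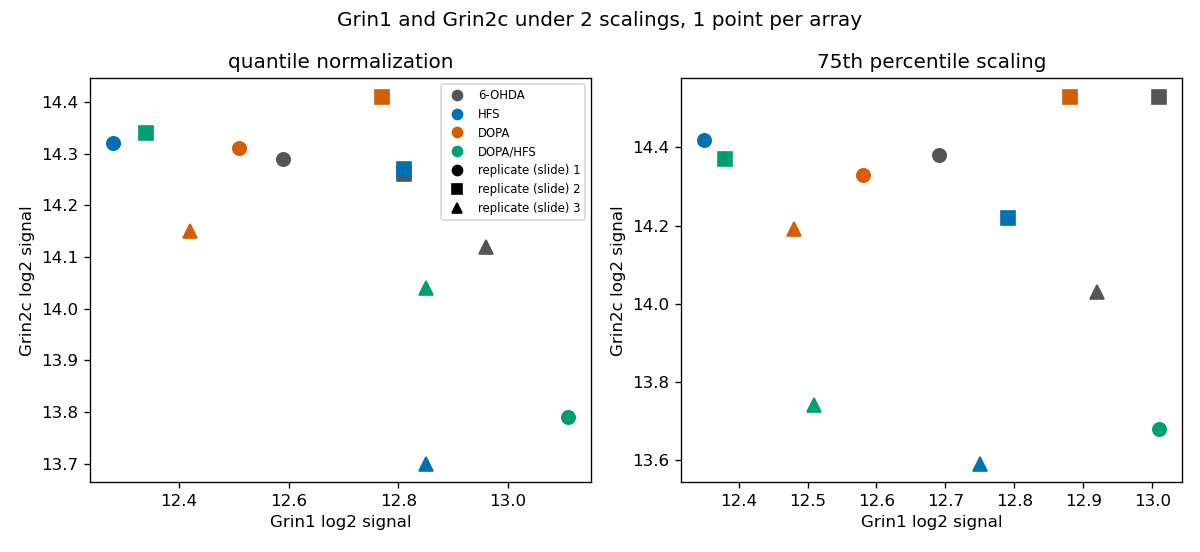
Log2 signal of Grin1 (x axis) and Grin2c (y axis) on the 12 arrays after quantile normalization (left) and after 75th percentile scaling (right), with colour for the group and shape for the replicate or slide. The points fall from upper left to lower right on the left (rho = -0.769) and show little trend on the right (rho = -0.105).

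Among the 18353 genes with a value on every array, those whose pattern over the 12 arrays was most like that of each subunit were ranked by Pearson's r, as a description without a test. For Grin1 they were Dlgap3, a postsynaptic density scaffold abundant in striatum (r = 0.942), Rabggta, a subunit of the enzyme that prenylates Rab proteins (r = 0.939), and LOC691853 (r = 0.922). With group means removed, r of Grin1 with Dlgap3 was 0.967. For Grin2b they were ENSRNOT00000044402 (r = 0.969), Lztr1_predicted (r = 0.96) and CB545196 (r = 0.956). For Grin2a they were RGD1304929_predicted (r = 0.941), CF108541 and TC523894, and for Grin2c TC524740 (r = 0.954), AI178665 and RGD1565010_predicted, named as in the files. Grin2d had no value on 1 array and was not ranked. Of 32 relations of the 4 subunits with signals of cell type marker lists and with the share of spots above background, examined after the values had been seen, 0 passed at an adjusted permutation p of 0.05 by r or by rank. The nearest was Grin1 with the striatal projection neuron list, with rho = 0.814 (permutation p = 0.00182, adjusted 0.0582) and r = 0.78 (permutation p = 0.00343, adjusted 0.11), and r = 0.699 without the 2 farthest arrays. For Grin2b and the cortical list rho was 0.629 (permutation p = 0.0317, adjusted 0.254) and r 0.528 (permutation p = 0.0782, adjusted 0.328), and r = 0.422 without the 2 farthest arrays. Grin2b was set beside other lists too, and the part of any list in its values was not tested. With the striatal projection neuron list rho was 0.639 (permutation p = 0.0287, adjusted 0.254) and r 0.644 (permutation p = 0.0257, adjusted 0.164). With the microglia list rho was 0.413 and r 0.644 (permutation p = 0.0132, adjusted 0.14).

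The NMDA receptor works with scaffolds of the postsynaptic density, with calcium-dependent kinases and phosphatases, with transporters that set glutamate and co-agonist levels, and with proteins that carry its subunits to the synapse. Of 38 such genes, 34 were tested, and 0 were called in HFS, DOPA or DOPA/HFS, where 0%, 0.0049% and 0% of all genes were. In HFS 16 had higher and 18 lower estimates, in DOPA 23 and 11, and in DOPA/HFS 16 and 18. Their median log2 fold change was -0.02 for HFS, 0.04 for DOPA and -0.04 for DOPA/HFS, beside 0.01, -0.01 and -0.01 for all genes. Rasgrf2, Nos1 and Dao did not pass the filter, and no probe was named Kif17.

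All 14 listed scaffold genes were tested. Dlg4, which encodes the scaffold PSD-95 that binds the tails of the GRIN2 subunits, read 9.83, 10.16 and 11.1 in HFS against 9.95, 9.4 and 10.36 in 6-OHDA, a log2 fold change of 0.46 (SE 0.34, limma's adjusted p = 0.998). The dimmer Dlg4 probe gave 0.39 in HFS (SE 0.33). For the brighter probe the groups overlapped, and HFS replicate 3 was the highest array. Without it the value was 0.09, without 6-OHDA replicate 2 it was 0.21, and without HFS replicate 1 it was 0.73. HFS replicate 3 was also highest for the mean of the cortical projection neuron genes, at 11.22. Among the HFS arrays it was highest for microglia markers, at 10.27, and striatal projection neuron markers, at 13.81, but not for the other lists. The part of these lists in the Dlg4 value was not tested. Homer1, a scaffold that links the receptor complex to metabotropic glutamate receptors, had 0.25 in DOPA (SE 0.16, limma's adjusted p = 1), and 0.1 without DOPA replicate 2. The dimmer Homer1 probe gave 0.37 in DOPA (SE 0.35).

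Of 11 signalling genes 9 were tested. Ppp3ca, a catalytic subunit of the calcium-activated phosphatase calcineurin, read 15.61, 15.65 and 15.17 in DOPA/HFS, below the 15.74, 15.98 and 15.81 of 6-OHDA. Its log2 fold change was -0.37 (SE 0.16, limma's adjusted p = 1). Without DOPA/HFS replicate 3, the array with 4175 outlier spots, it was -0.21. It was the 1 of 34 partner genes under 0.05 before adjustment in DOPA/HFS, as were 2.75% of all genes, and it was not under 0.05 in several alternatives, among them without that array, without 6-OHDA replicate 2, with saturated spots left out or in the fit of the compared arrays only. Its dimmer probe gave 0.07 (SE 0.3), and -0.2 in HFS (SE 0.27). In HFS Ppp3ca had -0.22 (SE 0.16) and the other calcineurin gene Ppp3cb -0.26 (SE 0.18, limma's adjusted p = 0.998), which was -0.15 without 6-OHDA replicate 2 and -0.4 without 6-OHDA replicate 1. In DOPA/HFS Ppp3cb read 13.14, 13.01 and 12.66, beside 12.96, 13.48 and 13.31 in 6-OHDA. Its log2 fold change was -0.31 (SE 0.18, limma's adjusted p = 1). Its groups overlapped, and the value was -0.17 without DOPA/HFS replicate 3 and -0.2 without 6-OHDA replicate 2. In the HFS effect averaged over L-DOPA, Ppp3cb was the 1 of 34 partner genes under 0.05 before adjustment, as were 4.36% of all genes. The value there was -0.29 (SE 0.12, limma's adjusted p = 0.912). Ppp3ca was the 1 gene reported here that lay wholly below 6-OHDA in DOPA/HFS with a fold past the limit, as did 1.71% of all genes, and 0 lay wholly above, with 1.07%. Camk2a, the alpha subunit of calcium/calmodulin-dependent kinase II, had 0.41 in DOPA (SE 0.33, limma's adjusted p = 1), while its dimmer probe gave -0.15 (SE 0.19). The value was 0.1 without DOPA replicate 3, 0.21 without 6-OHDA replicate 2 and 0.63 without DOPA replicate 2. DOPA replicate 3 was the highest array of its group for Camk2a, at 12.37, and for the cortical projection neuron genes, at 11.14, whose part was not tested.

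Of 6 genes for co-agonists and transport 5 were tested. Slc1a2, which encodes the main astrocytic glutamate transporter, read 11.5, 11.53 and 11.53 in DOPA, above the 11.22, 11.27 and 11.28 of 6-OHDA. Its log2 fold change was 0.27 (SE 0.14, limma's adjusted p = 1). It was the 1 listed gene wholly above 6-OHDA in DOPA with such a fold, as were 2.1% of all genes, and 0 were wholly below, with 1.77%. The HFS readings of 11.42, 11.29 and 11.48 were also above 6-OHDA. Their log2 fold change was 0.14 (SE 0.14), under the fold limit. The share of all genes lying apart without that limit was not computed. In DOPA/HFS it had 0.25 (SE 0.14) with values of 11.72, 11.53 and 11.26 that overlapped with 6-OHDA, and 0.14 without DOPA/HFS replicate 1 and 0.06 with 75th percentile scaling. Its dimmer probe gave 0.22 in DOPA (SE 0.24) and -0.23 in DOPA/HFS (SE 0.24).

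Of 7 trafficking genes 6 were tested. Lin7a, of the complex that carries GRIN2B-containing vesicles, was the 1 listed gene wholly above 6-OHDA in HFS with such a fold, as were 1.87% of all genes, and 0 were wholly below, with 1.33%. It read 8.25, 8.02 and 8.04 in HFS against 7.8, 7.46 and 7.99, a log2 fold change of 0.35 (SE 0.26, limma's adjusted p = 0.998). It is named because the count it makes up is 1, after its values were seen.

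**Figure D5:**
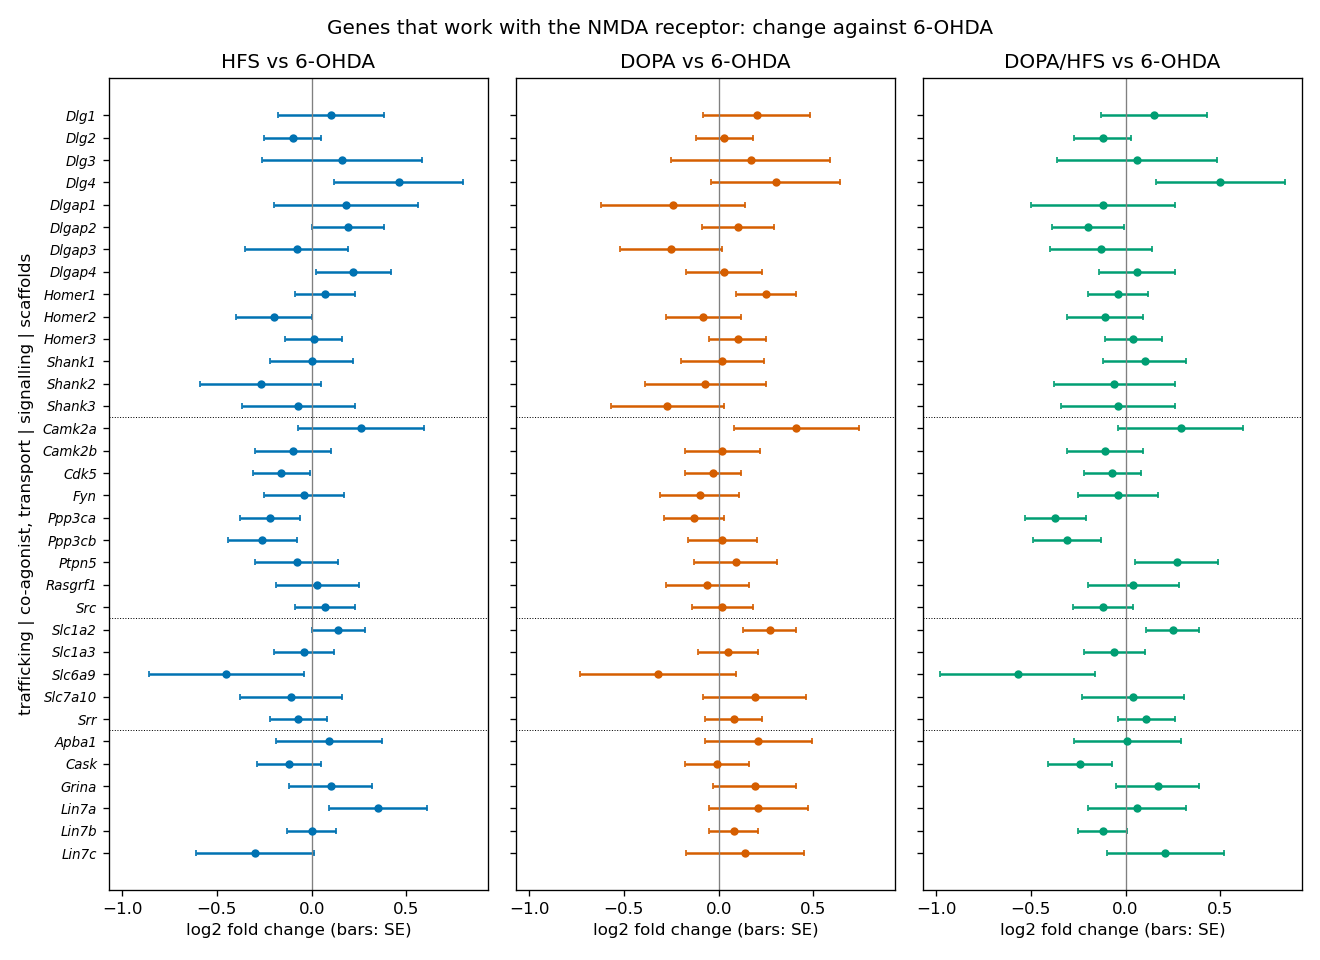
Log2 fold change against 6-OHDA (x axis, same range in each panel) of the 34 tested genes that work with the NMDA receptor (y axis), with bars of 1 standard error from the limma fit. Dotted lines separate scaffolds, signalling, co-agonist and transport, and trafficking genes from top to bottom. Estimates lie on both sides of 0 in every comparison (16 higher and 18 lower in HFS, 23 and 11 in DOPA, 16 and 18 in DOPA/HFS), and 0 were called.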

How the data were processed

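The authors extracted total RNA from dorsal striatum punches of 12 rats, labelled it with Cy3 and hybridised each sample to its own Agilent rat array. The deposited scanner files, written by Agilent Feature Extraction 9.1, hold an intensity for each spot with background subtracted and trends within the array removed, but no scaling between arrays. The deposited series table holds log2 values that the authors had quantile normalized between arrays, and was used as an alternative. Groups and replicate numbers came from the sample labels.

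The 1639 control spots and the spots marked as outliers were left out of the 45018 spots of each array. Intensities were taken to log2, quantile normalized and averaged by probe. A probe counted as well above background on an array when a share of at least 0.5 of its spots did, and probes that did so on a share of 0.4 or more of all arrays entered the analysis. Of the 41012 probes, 10735 were named through RefSeq accessions and the GRCr8 gene table, and the others kept their names in the files. The brightest probe stood for each of 20405 genes. These were fitted with limma 3.58.1 in R 4.3.3 over 4 groups, in place of the SAM test of the methods, which was not run. Probes of 1 gene or different genes were not compared in level. Correlations used 100000 permutations in Python 3.11.15 with numpy 2.4.6, pandas 2.3.3 and scipy 1.17.1, and figures matplotlib 3.10.9; the package data.table, version 1.17.8, and jsonlite 2.0.0 read the tables. The fit was tested on simulated data.

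The members and gene lists were chosen with earlier results of these data known. Of the partner genes first listed, 1 is not reported here and is left out of the counts. All members and their probes are named, with the 3 listed partner genes of lowest p in each comparison with 6-OHDA and the 3 genes most like each member. The alternatives were 75th percentile scaling, the normexp background model (offset 50), the deposited table, other filters, the mean of all probes, outlier spots kept, the replicate block, fits of the compared arrays only, other thresholds and leaving out each array. Leaving out saturated spots was added after seeing the data. Same-numbered arrays deviated together with correlations between -0.144 and 0.477, so the replicate number was not taken as a pairing.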

Additional observations from a re-analysis of the deposited data

How the results depend on the processing

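In every comparison and under every alternative run, leaving out each array included, 0 subunits were called, and in the comparisons with 6-OHDA 0 listed partner genes were. Adjusted p-values under 0.05, no fold limit, the replicate block and fits of the compared arrays only also gave 0 subunits. The replicate block was fitted although the numbers share only a slide, and 0 member probes were called with it. The correlations of same-numbered arrays ran from -0.144 to 0.477, and not every array correlated best with its own number. The count of subunits whose groups lay apart in HFS became 1 without the filter on dim probes (Grin3b, lower) and lay between 0 and 1 with arrays left out in turn (Grin2b, higher, without HFS replicate 1). It stayed at 0 in DOPA and DOPA/HFS. The share of all genes lying apart was not computed under these settings, so nothing is read from these counts. The 1 correlation that passed by rank became 0 with group means removed, where rho of Grin1 and Grin2c was -0.622, and 0 with 75th percentile scaling, where it was -0.105. The median log2 fold change of all genes in DOPA/HFS, -0.01 as reported, was -0.18 with that scaling, -0.12 in the deposited table and -0.14 with outlier spots kept.

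The sign of small changes turned in places. For Grin1 the HFS effect averaged over L-DOPA became -0.13 with 75th percentile scaling, -0.02 in the deposited table, -0.08 with the mean of all probes and -0.01 with outlier spots kept, and its L-DOPA average became 0.03 with the mean of all probes. For Grin2c the L-DOPA average became -0.05 with 75th percentile scaling, -0.01 in the deposited table and -0.03 with outlier spots kept. For Grin2b DOPA/HFS became -0.01 in the deposited table. For Grin2d, with saturated spots left out, DOPA/HFS became -0.9, the L-DOPA average -0.42 and the HFS average -0.48, and with the replicate block DOPA became 0.02, where 6-OHDA replicate 1 has no value. The cause was not tested except for Grin2d, where the saturated spot of DOPA/HFS replicate 3 sets the value.

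With arrays left out in turn, HFS ranged from -0.25 to 0.04 for Grin1 and from -0.24 to 0.07 for Grin2c. DOPA ranged from -0.04 to 0.22 for Grin2a and from -0.33 to 0.17 for Grin2b. DOPA/HFS ranged from -0.19 to 0.19 for Grin1, from -0.21 to 0.09 for Grin2a, from -0.01 to 0.49 for Grin2b and from -0.9 to 2.7 for Grin2d. The L-DOPA average ranged from -0.14 to 0.06 for Grin1, -0.11 to 0.04 for Grin2a, -0.21 to 0.04 for Grin2b, -0.09 to 0.08 for Grin2c and -0.42 to 1.38 for Grin2d. The HFS average ranged from -0.06 to 0.13 for Grin1, -0.1 to 0.05 for Grin2a and -0.48 to 1.32 for Grin2d.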
